A study of Sus scrofa with 12 samples.

Results

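MAGEL2, MKRN3, MEST and PEG3 are imprinted genes, which mammals transcribe mainly from the chromosome inherited from the father. They were picked by name because earlier results of these data had shown each of them lower in one parthenogenetic pig embryonic stem cell (ESC) line than in the other, and they make up 4 of the 30012 loci in the deposited expression table. The levels in the 2 parthenogenetic lines are therefore the values that chose them and are given here as a description, with no test. MAGEL2, MKRN3 and MEST each stood on 1 row of the table, and of the 2 rows of PEG3 the annotated one is described. The 4 genes passed the filter used for testing, an FPKM (fragments mapped to a locus, divided by its transcript length and by the library's total) of at least 1 in at least 3 libraries, but each could pass through the groups in which it was high.

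Pig cells of 4 kinds were sequenced, with 3 libraries each and 12 in all. ESC7 and ESC3 are parthenogenetic ESC lines, which come from an egg activated without sperm and so hold maternally inherited chromosomes. ESC11 is an ESC line derived after in vitro fertilisation (IVF), with a maternal and a paternal genome, and the fourth group is fibroblasts from a fetus at 30 days post coitum, used at passage 6. The 3 ESC lines were kept on feeder cells in 1 medium with FGF2 (20 ng/mL), ActA (5 ng/mL), CH (1.5 µM) and IWR-1 (2.5 µM), and SSEA1-positive cells were collected on magnetic columns before RNA was taken. IVF derivation is represented by 1 line and parthenogenesis by 2, so a difference between lines cannot be told apart from a difference in derivation. The labels do not say whether a group's 3 libraries were separate cultures, and p-values then measure only the spread between these libraries, which may be technical.

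In genomic imprinting, DNA methylation laid down differently in eggs and sperm leaves some genes active on the maternal copy alone and others on the paternal copy alone. Cells with no paternal genome are expected to lack transcripts of paternally expressed genes as long as the maternal imprint is kept. MAGEL2 and MKRN3 lie in the region that in humans is affected in Prader-Willi syndrome, together with NDN and SNRPN, whereas MEST and PEG3 each belong to an imprinted region of their own.

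A library had from 21898 to 24100 loci with a value above 0. The table holds no counts, so the depth behind a value is unknown. Steps of 1 fragment among low values gave a relative depth of 0.742 to 1.21 times that of ESC11 replicate 1. The labelled cell types carried their markers. Summed FPKM of 6 pluripotency genes was 2399 to 2477 in ESC7, 2352 to 2407 in ESC3, 2511 to 2526 in ESC11 and 1.31 to 1.74 in fibroblasts. Summed FPKM of 9 fibroblast genes was 71.6 to 84.2 in ESC7, 82.8 to 109 in ESC3, 66.3 to 70.7 in ESC11 and 17685 to 18030 in fibroblasts.

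MAGEL2, MKRN3, MEST and PEG3 were all at their lowest in ESC7, below ESC3, ESC11 and fibroblasts alike. ESC3, which is parthenogenetic as well, had MAGEL2, MKRN3 and MEST at or above the level of the IVF line, and PEG3 at 60.1% of it. In ESC7 the mean was 4.01% of the ESC11 mean for MAGEL2, 0.843% for MKRN3, 17.3% for MEST and 8.86% for PEG3. These are bulk measurements, in which fewer cells transcribing a gene and less RNA per cell cannot be told apart.

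MAGEL2 encodes a MAGE-family protein that works with the ubiquitin ligase TRIM27 in the recycling of membrane proteins from endosomes, and it lies on chromosome 1 at 158314803 to 158317091, plus strand (ENSSSCG00000004835; coordinates here follow the build Sscrofa10.2, as deposited). It had 0.463, 0.742 and 0.583 FPKM in the ESC7 libraries, against 19.3, 22.5 and 22.3 FPKM in ESC3, 15.4, 15.6 and 13.6 FPKM in ESC11 and 7.27, 6.15 and 6.68 FPKM in fibroblasts. The order was ESC3, ESC11, fibroblasts and ESC7, from high to low, and no 2 groups overlapped. The difference on the log2(FPKM + 1) scale was -3.81 ± 0.09 (standard error) for ESC7 minus ESC3, 0.50 ± 0.09 for ESC3 minus ESC11 and -3.32 ± 0.09 for ESC7 minus ESC11. Adding 1 before the logarithm makes the differences of low genes smaller than the ratio of their FPKM values.

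MKRN3, a makorin RING-finger ubiquitin ligase whose loss in humans leads to early puberty, lies on chromosome 1 at 158354954 to 158363850, minus strand (ENSSSCG00000004836). Its FPKM was listed at 0 and measured at 0.0079 and 0.0388 in the ESC7 libraries, against 2.72, 2.04 and 2.92 in ESC3, 1.78, 1.73 and 2.02 in ESC11 and 0.742, 0.365 and 0.687 in fibroblasts. The order of the groups was that of MAGEL2. ESC3 and ESC11 did not overlap, but the lowest ESC3 library was above the highest ESC11 library by less than the standard deviation within either line (0.463 FPKM in ESC3, 0.156 FPKM in ESC11). The log2 difference was -1.80 ± 0.11 for ESC7 minus ESC3, 0.32 ± 0.11 for ESC3 minus ESC11 and -1.49 ± 0.11 for ESC7 minus ESC11.

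MEST, also called PEG1, encodes a protein of the endoplasmic reticulum with an alpha/beta hydrolase fold that promotes growth in mice. It lies on chromosome 18 at 19327494 to 19347714, minus strand (ENSSSCG00000016554). MEST had 2.14, 2.07 and 2.26 FPKM in the ESC7 libraries, against 13.7, 13.3 and 13.9 FPKM in ESC3, 13.0, 12.6 and 11.8 FPKM in ESC11 and 20.6 FPKM in each of the fibroblast libraries. Its order differed from that of the other genes, with fibroblasts highest, then ESC3, ESC11 and ESC7, and no 2 groups overlapped. Of the 4 genes it kept the highest level in ESC7, 2.16 ± 0.092 FPKM (SD, n = 3). The log2 difference was -2.22 ± 0.04 for ESC7 minus ESC3, 0.12 ± 0.04 for ESC3 minus ESC11 and -2.09 ± 0.04 for ESC7 minus ESC11.

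PEG3 encodes a DNA-binding protein with many zinc fingers, known from mice for effects on growth and maternal care. Its annotated row is on chromosome 6 at 56621615 to 56644075, minus strand (ENSSSCG00000003326). It had 0.416, 0.398 and 0.403 FPKM in the ESC7 libraries, against 2.51, 2.61 and 3.14 FPKM in ESC3, 4.73, 4.46 and 4.55 FPKM in ESC11 and 0.722, 0.872 and 0.828 FPKM in fibroblasts. ESC11 was highest, followed by ESC3, fibroblasts and ESC7, again without overlap. PEG3 was thus the gene of the 4 that was lower in ESC3 than in the IVF line, by 0.58 ± 0.07 on the log2 scale, while the difference was -1.41 ± 0.07 for ESC7 minus ESC3 and -1.99 ± 0.07 for ESC7 minus ESC11. The second row of PEG3, an unannotated locus on the plus strand at 56618191 to 56621709 that overlaps the first by 95 bases, averaged 0.299 FPKM in ESC7, 2.28 in ESC3, 4.51 in ESC11 and 0.871 in fibroblasts. Both rows gave the same order of groups.

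**Figure D1:**
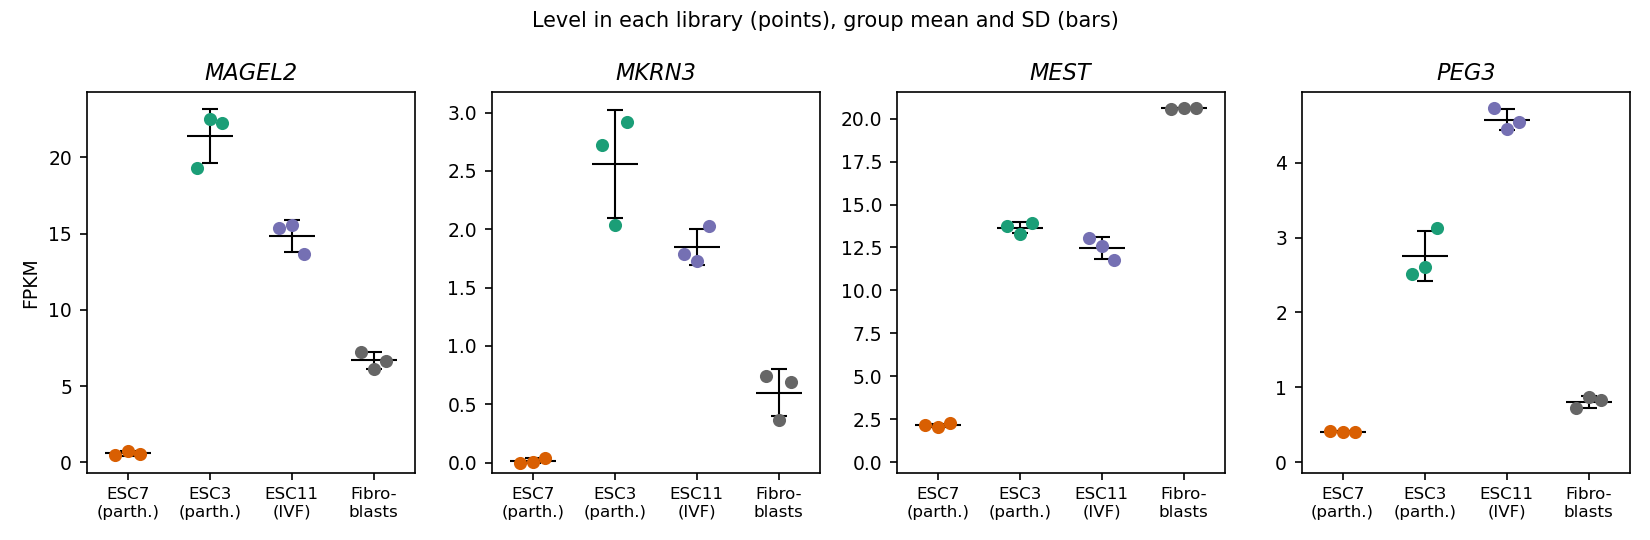
FPKM of MAGEL2, MKRN3, MEST and PEG3 in each of the 12 libraries on a linear axis that starts just below 0, 1 panel per gene. Points are libraries, long bars group means and short bars 1 SD to either side. ESC7, ESC3, ESC11 and fibroblasts stand from left to right. ESC7 is the lowest group in every panel, and fibroblasts are the highest group for MEST only.

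Differences of this size were counted over all loci. Of 18278 loci tested with limma, 190 (1.04%) were called lower and 428 (2.34%) higher in ESC7 than in ESC3, which means an adjusted p (Benjamini-Hochberg) under 0.05 with a log2 difference of 1 or more. After quantile normalization the split was 244 lower and 348 higher. Without overlap, 21.7% of loci lay lower in ESC7 than in ESC3 and 16.6% lower in ESC7 than in ESC11. Against ESC11, 22.1% of loci lay higher in ESC3 without overlap, the direction of MAGEL2, MKRN3 and MEST, and 18.1% lay lower, the direction of PEG3. Loci called lower in ESC7 than in both other ESC lines numbered 59 (0.323%). The reverse set, called lower in ESC3 than in both other lines, held 88 loci (0.481%).

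The contrast of ESC11 with fibroblasts was tested, because its differences use neither of the parthenogenetic lines whose values chose the genes. It is not fully independent of that choice. MKRN3 and PEG3 were under 1 FPKM in every fibroblast library and passed the filter only through ESC3 and ESC11, where they were high. Their p-values here are therefore no independent support. MAGEL2 was higher in ESC11, with means of 14.9 ± 1.06 FPKM in ESC11 and 6.70 ± 0.559 FPKM in fibroblasts (SD, n = 3 each), a log2 difference of 1.04 ± 0.09 (limma, adjusted p = 9.5e-07). PEG3 was also higher in ESC11, with 4.58 ± 0.139 FPKM in ESC11 and 0.807 ± 0.077 FPKM in fibroblasts, a log2 difference of 1.63 ± 0.07 (adjusted p = 2.1e-09). These 2 of 4 genes were called, both higher, while 42.9% of all loci tested were called in either direction and 27.4% higher, so their count is read as no result about these genes. MKRN3 averaged 1.85 ± 0.156 FPKM in ESC11 and 0.598 ± 0.203 FPKM in fibroblasts, and its log2 difference of 0.84 ± 0.11 passed the p threshold (adjusted p = 3.9e-05) but not the fold minimum. MEST went the other way, with 12.5 ± 0.649 FPKM in ESC11 and 20.6 ± 0.0163 FPKM in fibroblasts, and its difference of -0.68 ± 0.04 (adjusted p = 9.1e-08) did not reach the fold minimum either. The call of MAGEL2 rested on a small margin: without fibroblast replicate 2 the difference was 0.99, and after median-ratio scaling, which centres the 2 cell types on each other, it was 0.67. In the 4 genes no 2 of these groups overlapped, as at 55.9% of loci for higher in ESC11 and 30.0% for lower.

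Transcription next to the genes was then read from the 5 rows on either side of each on the same chromosome. These are 29 different rows besides the 4 genes and the second PEG3 row, and 10 of them passed the filter. In ESC7 against ESC3, 3 of the 10 were called lower and 1 higher, while 3.38% of all loci were called in either direction. In ESC3 against ESC11, 3 were called lower and 1 higher (2.48% of all loci in either direction), and in ESC7 against ESC11, 4 were called lower (2.94% of all loci). XLOC_000476 and XLOC_001535, called lower in both of these contrasts, passed the filter through ESC11 alone, so their calls are no support. With a filter of 1 FPKM in at least 6 libraries, 2 rows were called in each of these contrasts. The row described as ZNF850 was called lower in ESC3 than in ESC7 and in ESC11. It passed the main filter through ESC7 and ESC11 alone, so its calls are no support either.

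Beside MAGEL2, 2 short unannotated loci were low in ESC7 as MAGEL2 was. The locus XLOC_000477 at 158313086 to 158313825 ends 977 bases before MAGEL2 on the same strand. It had 0.718, 0.678 and 1.42 FPKM in ESC7, against 31.4, 37.2 and 36.5 FPKM in ESC3, 20.4, 22.6 and 19.5 FPKM in ESC11 and 8.59 to 8.92 FPKM in fibroblasts. Its log2 difference was -4.23 ± 0.13 for ESC7 minus ESC3 (limma, adjusted p = 8.1e-09) and -3.51 ± 0.13 for ESC7 minus ESC11 (adjusted p = 3.2e-08), and both were called. The locus XLOC_001536 at 158314430 to 158314785 lies 17 bases before MAGEL2, on the minus strand. It was listed at 0 in the 3 ESC7 libraries, against 57.2, 68.0 and 49.0 FPKM in ESC3, 27.9, 22.7 and 24.9 FPKM in ESC11 and 20.1, 23.2 and 30.6 FPKM in fibroblasts. It was the 1 row near these genes that was called higher in ESC3 than in ESC11, by 1.17 ± 0.15 (adjusted p = 0.00044). Strand settings of the library and of the counting are not given in the sources used here, so reads of MAGEL2 and of this locus may not have been kept apart. Whether XLOC_000477 is transcribed apart from MAGEL2 was not tested either, and its p-values may repeat the difference that chose MAGEL2.

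Farther out on the same side, the picture changed: 2 overlapping unannotated loci were at or near 0 in both parthenogenetic lines. XLOC_000476, at 157998693 to 158011272 and 303530 bases from MAGEL2, was listed at 0 in the ESC7 libraries and in 2 of the ESC3 libraries and was at 0.0268 FPKM in the other, against 17.1, 17.6 and 17.7 FPKM in ESC11. Its log2 difference was -4.21 ± 0.04 for ESC7 minus ESC11 (adjusted p = 4.2e-12) and -4.19 ± 0.04 for ESC3 minus ESC11 (adjusted p = 8.7e-12). XLOC_001535, at 157975052 to 158008059 on the opposite strand, was listed at 0 in the 6 parthenogenetic libraries and averaged 6.40 FPKM in ESC11 (-2.89 ± 0.05 for either line minus ESC11, adjusted p = 8.7e-11 for ESC7 and 1.1e-10 for ESC3). Both loci passed the filter through the ESC11 libraries alone, so they had to differ from ESC11, and these p-values are no support. With a filter of 1 FPKM in at least 6 libraries neither is tested. Along this stretch of chromosome 1, ESC3 therefore had MAGEL2, MKRN3 and the 2 short loci at or above ESC11 levels, and the 2 farther loci at or near 0.

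On the other side of MKRN3 the only tested row was KLF13, 1032711 bases away, and it was not called between ESC lines. CHRNA7, a nicotinic receptor subunit gene, was listed at 0 in the 9 ESC libraries, and OTUD7A, a deubiquitinase gene, had at most 0.301 FPKM in them. KLF13, a transcription factor gene, averaged 11.1 FPKM in ESC7, 10.1 FPKM in ESC3 and 10.7 FPKM in ESC11 and was not called (0.13 ± 0.04 for ESC7 minus ESC3). UBE3A, a ubiquitin ligase gene that neurons express from the maternal copy, lies outside the 5 rows on the side of MAGEL2. It averaged 45.2 FPKM in ESC7, 42.0 FPKM in ESC3 and 44.9 FPKM in ESC11. NDN, which stands between UBE3A and MAGEL2 in the order of RefSeq coding genes on Sscrofa11.1, was not matched to a row and is not analysed here.

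Around MEST, neither of the 2 tested neighbours was called. COPG2, a coat protein gene on the opposite strand whose row overlaps MEST by 3041 bases, averaged 45.2 ± 1.47 FPKM in ESC7, 50.5 ± 1.32 FPKM in ESC3 and 53.7 ± 1.71 FPKM in ESC11 (SD, n = 3 each). Its log2 difference for ESC7 minus ESC3 was -0.16 ± 0.04 (adjusted p = 0.0083), below the fold minimum. CEP41, a centrosomal protein gene 87665 bases away, averaged 2.84 FPKM in ESC7 and 2.85 FPKM in ESC3 (-0.01 ± 0.05, adjusted p = 0.96). The carboxypeptidase genes CPA4, CPA1 and CPA5 did not pass the filter, and their highest value in an ESC library was 0.123 FPKM.

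Around PEG3, neighbours moved in both directions. A locus without a gene name (ENSSSCG00000003325.L01, 56588397 to 56612566), 9048 bases from PEG3, had 1.35, 0.767 and 2.34 FPKM in ESC7, against 4.87, 4.91 and 3.66 FPKM in ESC3 and 4.65, 3.51 and 2.62 FPKM in ESC11. It was called lower in ESC7 than in ESC3 (-1.18 ± 0.22, adjusted p = 0.0022), but without ESC7 replicate 2 the difference was -0.96 and the call was lost. ZNF134, a zinc-finger gene on the other side, averaged 55.5 FPKM in ESC7, 32.9 FPKM in ESC3 and 42.6 FPKM in ESC11, a difference of 0.74 ± 0.08 for ESC7 minus ESC3 that was below the fold minimum. An unannotated locus described as ZNF850 (56738666 to 56777933) had the reverse of the PEG3 pattern, with 1.85, 2.06 and 2.34 FPKM in ESC7, against 0.0624, 0 and 0.00838 FPKM in ESC3 and 2.95, 2.64 and 3.06 FPKM in ESC11. ESC7 minus ESC3 was 1.59 ± 0.07 (limma, adjusted p = 1.1e-07) and ESC3 minus ESC11 was -1.92 ± 0.07 (adjusted p = 3.8e-08). The locus averaged 0.052 FPKM in fibroblasts and passed the filter through ESC7 and ESC11 alone, where it was high. These p-values are therefore no support. The next 3 rows, which overlap or follow that locus and were too low to be tested, were listed at 0 in the ESC3 libraries and at 0.123 to 0.628 FPKM in the ESC7 and ESC11 libraries.

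**Figure D2:**
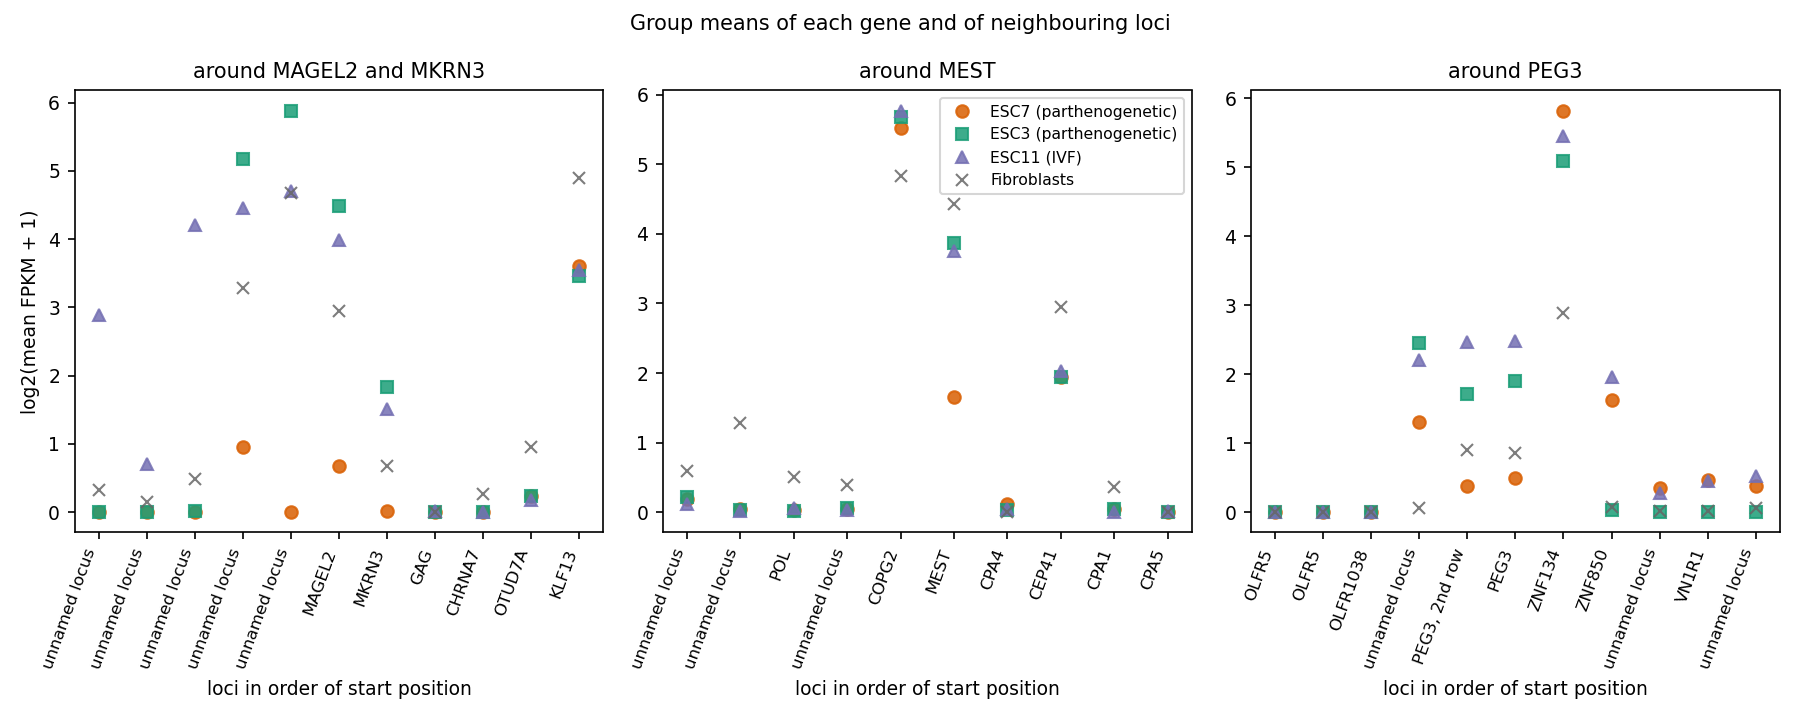
Log2 of the group mean FPKM plus 1 for each gene and the reported rows among the 5 on either side, in order along the chromosome, with ESC7, ESC3, ESC11 and fibroblasts as separate markers. ESC7 drops away from ESC3 at MAGEL2, MKRN3 and the 2 loci just before MAGEL2, at MEST alone in its panel, and at PEG3, its second row and the unnamed locus next to it, while ESC3 drops away from ESC7 at ZNF850.

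Over longer distances the ESC7 minus ESC3 differences centred near 0. Within 5 Mb of MAGEL2 and MKRN3, 47 other tested loci had a median log2 difference of 0.01, and the 2 short loci before MAGEL2 were the loci called there. Within 5 Mb of MEST, 68 loci had a median of 0.04, with 4 called higher and 1 lower. Several of the 4 are rows of 1 gene, so they do not stand for 4 separate genes. Within 5 Mb of PEG3, 157 loci had a median of 0.09, with 6 called higher and 2 lower. Over all tested loci the median was 0.02, and 2.34% were called higher and 1.04% lower.

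**Figure D3:**
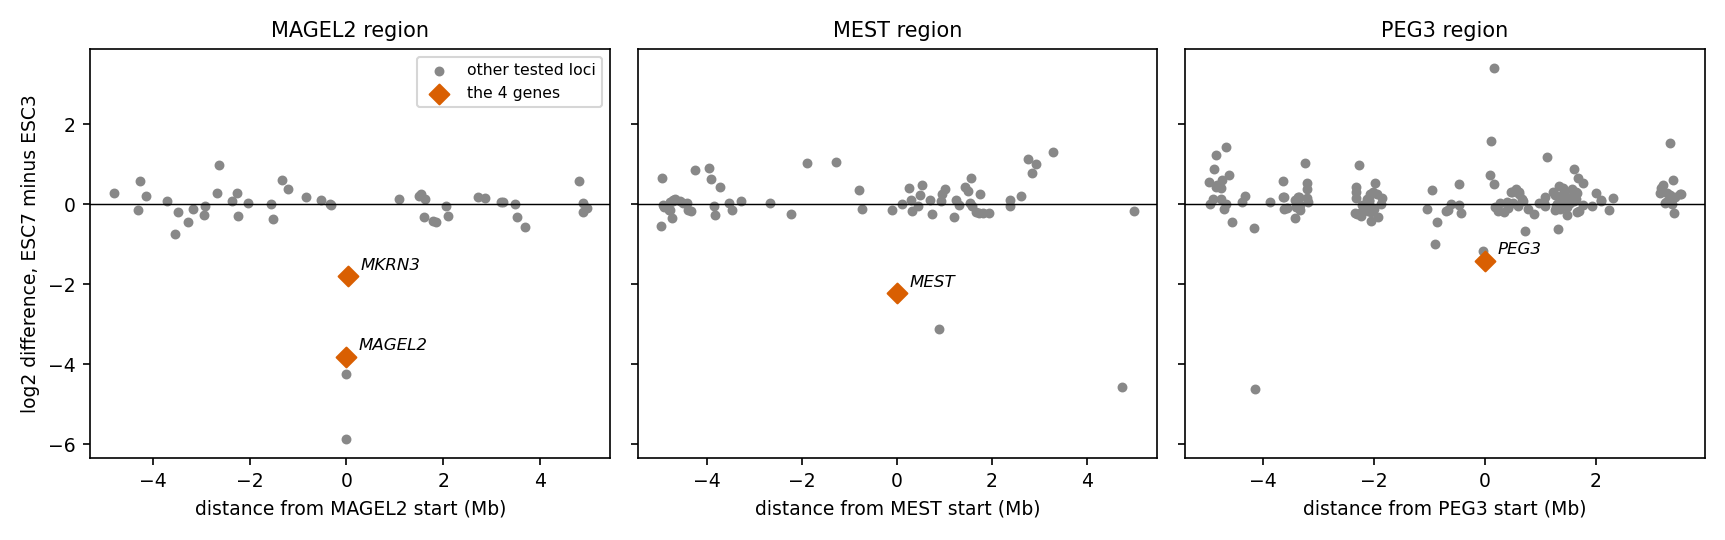
Log2 difference ESC7 minus ESC3 of tested loci against their distance in Mb from MAGEL2, MEST or PEG3, 1 panel per region, with the 4 genes as diamonds and other loci as grey points. Most grey points lie near 0, the 2 below MAGEL2 are the short loci beside it, and single distant loci in the MEST and PEG3 panels lie lower than the gene.

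Other genes listed as paternally expressed were then compared between the same lines. The list was taken by gene name, and the parental copy that pig cells transcribe was not measured. Of 31 such genes, 21 had a row and 15 were tested. In ESC7 against ESC3, limma called 0 of the 15 in either direction, beside 3.38% of all loci, and 4 were higher and 1 lower at an unadjusted p under 0.05, beside 27.0% and 20.7% of all loci. With 15 genes, a count of 0 is near the share over all loci. Their median difference was 0.04, against 0.02 over all loci. In ESC3 against ESC11, 7 of 15 were called lower (0.996% of all loci), with a median of -0.35 against 0.01 over all loci. In ESC7 against ESC11, 6 of 15 were called lower (0.799% of all loci), with a median of 0.02 against 0.05. The 2 contrasts share the ESC11 libraries.

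SNRPN, PEG10, SGCE, NNAT, NAP1L5 and PLAGL1 were called lower than ESC11 in both parthenogenetic lines, beside 67 (0.367%) of all loci. Called lower in ESC7 than in both other lines were 0 of the 15, beside 59 (0.323%) of all loci. With 15 genes, this 0 is near that share. SNRPN, a splicing protein gene of the same imprinted region as MAGEL2 in humans, averaged 0.126 FPKM in ESC7, 0.143 FPKM in ESC3 and 154 FPKM in ESC11, differences of -7.11 ± 0.09 for ESC7 and -7.09 ± 0.09 for ESC3 (adjusted p = 1.0e-11 and 2.1e-11). In ESC3 it was therefore near 0 while MAGEL2 and MKRN3 were above the IVF level. PEG10, derived from a retrotransposon, averaged 0.313 FPKM in ESC7, 0.245 FPKM in ESC3 and 81.5 FPKM in ESC11. Its neighbour SGCE, a sarcoglycan gene, averaged 0.0318 FPKM in ESC7, was listed at 0 in ESC3 and averaged 8.83 FPKM in ESC11. NAP1L5, of the nucleosome assembly family, averaged 0.0555 FPKM in ESC7, was listed at 0 in ESC3 and averaged 6.01 FPKM in ESC11.

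The other called genes were less extreme. NNAT, a small membrane protein gene, averaged 1.59 FPKM in ESC7, 1.77 FPKM in ESC3 and 11.1 FPKM in ESC11, and PLAGL1, a zinc-finger gene, averaged 0.446 FPKM in ESC7, 0.426 FPKM in ESC3 and 7.73 FPKM in ESC11. DIRAS3, a small GTPase gene, was called in ESC3 against ESC11 (-1.12 ± 0.08) and lay just short of the fold minimum in ESC7 against ESC11 (-0.98 ± 0.08). DIRAS3 was called there as well without ESC7 replicate 3 (-1.05) or ESC11 replicate 2 (-1.02). The 8 genes called in neither line were IMPACT, INPP5F, L3MBTL1, ZDBF2, GPR1, SLC38A4, SFMBT2 and ZNF597. IMPACT, for one, averaged 27.3 FPKM in ESC7, 30.9 FPKM in ESC3 and 26.8 FPKM in ESC11. Whether pig ESCs transcribe these 8 genes from the paternal copy alone was not tested.

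**Figure D4:**
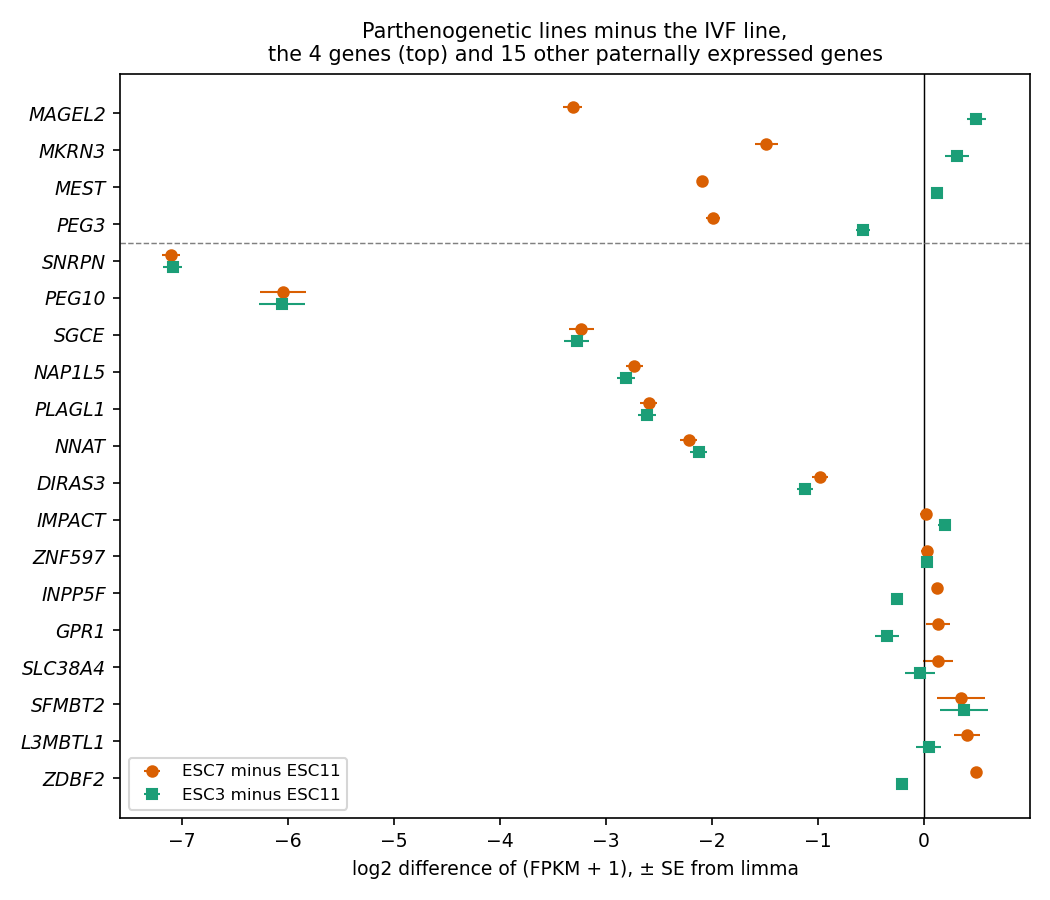
Log2 difference from ESC11 of MAGEL2, MKRN3, MEST, PEG3 and the 15 other tested genes listed as paternally expressed. ESC7 minus ESC11 and ESC3 minus ESC11 are paired markers. The 4 genes have a gap between the lines, with ESC7 far below 0 and ESC3 near it, whereas the markers of SNRPN, PEG10, SGCE, NNAT, NAP1L5 and PLAGL1 coincide well below 0.

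Genes that lay down or keep imprints were read in the same way. Of 33 listed genes of imprint maintenance and DNA methylation, 30 had a row and 24 were tested. In ESC7 against ESC3, limma called 0 of them, beside 3.38% of all loci, so the count says nothing particular about the list. At an unadjusted p under 0.05, 4 were higher and 11 lower, beside 27.0% and 20.7% of all loci, and the median was -0.15 against 0.02 over all loci. DNMT1, the maintenance DNA methyltransferase, averaged 60.5 FPKM in ESC7, 69.9 FPKM in ESC3 and 71.7 FPKM in ESC11. UHRF1, which brings DNMT1 to replicating DNA, averaged 53.8 ± 5.50 FPKM in ESC7, 86.6 ± 2.74 FPKM in ESC3 and 73.7 ± 0.983 FPKM in ESC11 (SD, n = 3 each). ZFP57, a zinc-finger protein that protects imprints in mice and humans, was too low to be tested and averaged 0.863 FPKM in ESC7, 0.0315 FPKM in ESC3 and 0.472 FPKM in ESC11. ZNF445, which has a like role, averaged 11.7 FPKM in ESC7, 14.9 FPKM in ESC3 and 12.2 FPKM in ESC11. DNMT3L, a cofactor in setting imprints in mouse germ cells, averaged 0.294 FPKM in ESC7, 1.35 FPKM in ESC3 and 0.806 FPKM in ESC11, and its difference of -0.86 ± 0.10 for ESC7 minus ESC3 was below the fold minimum. The other 2 contrasts between ESC lines gave 0 called genes in limma as well. Of all loci, 2.48% were called in ESC3 against ESC11 and 2.94% in ESC7 against ESC11. In ESC3 against ESC11, 6 of the 24 were higher and 4 lower at an unadjusted p under 0.05. Of all 18278 loci, 3506 were higher and 2922 lower there. In ESC7 against ESC11, 7 of the 24 were higher and 9 lower at that p, beside 4747 and 2797 of all loci. The 9 lower stood farthest above the share over all loci, and this excess was not tested. In ESC11 against fibroblasts 10 of the 24 were called, each higher, while 27.4% of all loci were.

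Relatives and partners of MAGEL2 and MKRN3 were compared as well. Of the MAGE family and of the complexes in which MAGEL2 works, 14 genes were tested. In ESC7 against ESC3, limma called 0 of them, beside 3.38% of all loci. With so few genes, 0 is near that share. At an unadjusted p under 0.05, 6 were higher and 4 lower, beside 27.0% and 20.7% of all loci. The median was 0.01 against 0.02 over all loci. In ESC11 against fibroblasts, 2 were called higher and 1 lower, beside 27.4% and 15.5% of all loci. TRIM27, the ligase bound by MAGEL2, averaged 25.8 FPKM in ESC7, 25.6 FPKM in ESC3 and 25.5 FPKM in ESC11. USP7, a deubiquitinase, averaged 83.4 FPKM in ESC7, 85.7 FPKM in ESC3 and 90.9 FPKM in ESC11. VPS35, a retromer subunit, averaged 82.4 FPKM in ESC7, 75.6 FPKM in ESC3 and 76.5 FPKM in ESC11. MAGED1, a broadly expressed MAGE gene, averaged 124 ± 8.98 FPKM in ESC7, 182 ± 14.3 FPKM in ESC3 and 97.9 ± 8.24 FPKM in ESC11 (SD, n = 3 each). The makorins MKRN1 and MKRN2 were both uncalled in ESC7 against ESC3. At an unadjusted p under 0.05, 1 was higher and 1 lower, beside 27.0% and 20.7% of all loci. MKRN1 averaged 156 FPKM in ESC7, 145 FPKM in ESC3 and 160 FPKM in ESC11.

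Maternally expressed imprinted genes were given for the opposite parent. Of 29 listed, 19 had a row and 15 were tested, and 1 was called higher and 0 lower in ESC7 against ESC3. Of all loci, 2.34% were called higher and 1.04% lower, so these counts are near the share over all loci. At an unadjusted p under 0.05, 6 were higher and 2 lower, beside 27.0% and 20.7% of all loci. The median was 0.16 against 0.02 over all loci. The called row is an unannotated locus of 124 bases that the table assigns to KCNQ1. It had 7552, 13627 and 9342 FPKM in ESC7, was listed at 0 in ESC3, had 1959, 3297 and 1079 FPKM in ESC11 and was listed at 0 in fibroblasts. It thus passed the filter through ESC7 and ESC11 alone, where it was high, so its call is no support. Whether FPKM is reliable at so short a locus was not tested. With Ensembl loci alone, which leaves that row out, the count was 0. Without ESC3 replicate 1 the count was 2, and the added gene was PHLDA2 at -1.49.

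Named loci with the most similar profile over the 12 libraries were found among 12737 tested Ensembl loci by the root mean square difference of log2(FPKM + 1) after each locus was centred on its own mean. For MAGEL2 they were QTRT1 (difference 0.55), PAFAH1B3 (0.58) and TUBB3 (0.65). For MKRN3 they were LYPLAL1 (0.17), SEC31B (0.20) and GNL1 (0.23). MEST was most similar to FARP1 (0.38), QTRT1 (0.47) and TRAPPC3 (0.48), and PEG3 to TMED9 (0.28), SEC31B (0.31) and GNL1 (0.36). QTRT1, a subunit of a tRNA-modifying enzyme on chromosome 2, had 0, 0.210 and 0.0393 FPKM in ESC7, against 7.14, 8.59 and 7.36 FPKM in ESC3, 8.66, 9.11 and 9.80 FPKM in ESC11 and 7.00, 7.74 and 8.05 FPKM in fibroblasts. PAFAH1B3, a platelet-activating factor hydrolase subunit on chromosome 6, averaged 0.512 FPKM in ESC7, 8.36 FPKM in ESC3 and 4.61 FPKM in ESC11. These loci were selected for their likeness, so their differences are a description.

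TUBB3, a tubulin gene of neurons, also stood on the list of neural progenitor markers and made up most of its sum. Summed FPKM of the 5 neural markers in the table was 50.1 to 57.9 in ESC7, 238 to 272 in ESC3, 143 to 152 in ESC11 and 213 to 224 in fibroblasts. TUBB3 had 41.1, 44.4 and 48.5 FPKM in ESC7, against 262, 245 and 227 FPKM in ESC3, 141, 143 and 133 FPKM in ESC11 and 113, 112 and 122 FPKM in fibroblasts. PAX6, the defining neural progenitor factor, was listed at 0 in the ESC7 and ESC3 libraries and averaged 0.0131 FPKM in ESC11, and NES averaged 6.48 FPKM in ESC7, 6.14 FPKM in ESC3 and 5.57 FPKM in ESC11. Of the 5 markers, 3 were at 1 FPKM or more in every library of each ESC line. The neural sum and TUBB3 had the order of MAGEL2 and MKRN3 among the ESC lines. The sum was higher in fibroblasts than in ESC11, unlike these genes. TUBB3 was lower in fibroblasts than in ESC11, as MAGEL2 and MKRN3 were. The part of neural cells in their levels was not tested. Mesoderm markers summed to 1.86 to 1.93 FPKM in ESC7, 1.02 to 1.76 FPKM in ESC3 and 1.20 to 1.52 FPKM in ESC11. Endoderm markers summed to 6.76 to 6.79 FPKM in ESC7, 4.79 to 6.49 FPKM in ESC3 and 5.25 to 6.19 FPKM in ESC11. Trophectoderm markers were dominated by the row of KRT7, and their sums ranged from 4255 to 6635 FPKM in ESC7, from 67.1 to 24270 FPKM in ESC3 and from 3140 to 6499 FPKM in ESC11.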

How the data were processed

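RNA-seq of 12 pig libraries in 4 groups was analysed. The deposited values are FPKM made by the authors, per the file headers, in 1 table with all 12 columns matched to a labelled sample. The build was Sscrofa10.2, and the tools named are Cufflinks 2.1.1 and STAR 2.4.0b, per the submitters' processing notes. Their roles, strand settings and the handling of reads that map to several places are not given in the sources used here. Libraries were polyA-selected and read as 100 bp paired ends, per the labels.

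Values were taken as log2(FPKM + 1). Loci that reached 1 FPKM in 3 or more libraries were fitted together, as group means of the 12 libraries, with limma 3.58.1 (R 4.3.3, variance trend on). Two-sided p-values were adjusted over all 18278 loci tested by the Benjamini-Hochberg method. Differences carry limma standard errors, and levels carry SDs between libraries. The genes, lists and comparisons were chosen with earlier results of these data known, so they are no independent evidence. A gene that fits the rule for named genes is not reported here. Named are the 4 genes, the 5 rows on either side, up to 4 called genes per list and contrast, and 3 similar loci per gene. NNAT, PLAGL1, DIRAS3, PHLDA2, UBE3A and uncalled list members were named after their values were seen. A symbol on several rows was taken at its highest mean, annotated rows first. The fit was tested on simulated data. Alternatives were other pseudocounts, filters, scalings, variance models, Ensembl loci alone, summed rows, a replicate block and leaving out each library. RefSeq gene order (Sscrofa11.1) was used for neighbours only. Python 3.11.15, pandas 2.3.3, numpy 2.4.6 and matplotlib 3.10.9 were used.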

Additional observations from a re-analysis of the deposited data

Results flagged for a closer look

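Relative to the IVF line ESC11, some loci lay on opposite sides in the 2 parthenogenetic lines: every ESC7 library was on one side of every ESC11 library and every ESC3 library on the other. The opposition itself was not tested. Of the 18278 loci, 3.85% had ESC7 below and ESC3 above ESC11 in this way, and 5.78% had the reverse. It was seen for MAGEL2 (-3.81 for ESC7 minus ESC3 on the log2 scale), MKRN3 (-1.80) and MEST (-2.22), whose low level in ESC7 is what chose them. It was also seen for the short loci beside MAGEL2, XLOC_000477 (-4.23) and XLOC_001536 (-5.87). The 124-base locus assigned to KCNQ1 had the opposite direction, with 13.27 for ESC7 minus ESC3, from means of 10174 FPKM in ESC7, 0 in ESC3 and 2112 FPKM in ESC11. That locus passed the filter through ESC7 and ESC11 alone, where it was high.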

How the results depend on the processing

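Of 345 recomputed values of the main results 314 kept their side of the threshold or their size, as did 1540 of 1599 others. No log2 difference that passed the thresholds for a call changed direction. Differences short of those thresholds, and counts of calls, were not checked for direction. Loci called were 618 in ESC7 against ESC3, 454 in ESC3 against ESC11, 537 in ESC7 against ESC11 and 7847 in ESC11 against fibroblasts. In that order, a pseudocount of 0.1 gave 1148, 747 and 904 for the first 3, a pseudocount of 5 gave 219, 264, 248 and 4521, and Ensembl loci alone gave 321, 157 and 209. Leaving out 1 library gave 607 to 644, 393 to 472, 476 to 565 and 7795 to 7891. Quantile normalization split the ESC3 against ESC11 calls into 179 higher and 199 lower (272 and 182 before), those of ESC7 against ESC11 into 293 and 182 (391 and 146 before) and those of ESC11 against fibroblasts into 3605 and 3498 (5007 and 2840 before). Median-ratio scaling split the last into 3545 and 3789, and moved the median over all loci from 0.39 to 0.05; quantile normalization moved it to 0.11. For ESC7 minus ESC3, pseudocounts of 0.1 and 5 gave -4.96 and -2.24 for MAGEL2, -4.52 and -0.59 for MKRN3, -2.61 and -1.38 for MEST, and -2.49 and -0.52 for PEG3. Quantile normalization gave -3.97 for MAGEL2, -2.37 for MEST and -1.55 for PEG3, and summing both rows gave -1.82 for PEG3. Leaving out 1 library gave -3.88 to -3.75 for MAGEL2, -1.91 to -1.73 for MKRN3, -2.24 to -2.20 for MEST and -1.46 to -1.34 for PEG3. For ESC11 minus fibroblasts, MAGEL2 fell below the fold minimum with a pseudocount of 5 (0.76), quantile normalization (0.79) and median-ratio scaling (0.67), and PEG3 with a pseudocount of 5 (0.72). MKRN3 passed it with a pseudocount of 0.1 (1.52), and MEST with median-ratio scaling (-1.08). Leaving out 1 library gave 0.99 to 1.10 for MAGEL2, 0.73 to 0.91 for MKRN3, -0.71 to -0.65 for MEST and 1.59 to 1.65 for PEG3. Neighbouring rows called in ESC7 against ESC3 numbered 4, and 2 with a pseudocount of 5, 1 with Ensembl loci alone and 3 to 4 without 1 library. In ESC3 against ESC11 and in ESC7 against ESC11 they numbered 4 each, and 2 each with a filter of 6 libraries and 0 each with Ensembl loci alone. Of other genes listed as paternally expressed, 0, 7 and 6 were called in the 3 ESC contrasts, and 6 to 7 in the last without 1 library. With a pseudocount of 0.1, 2 of the 24 tested genes of imprint maintenance were called in ESC7 against ESC3, DPPA3 (1.05) and DNMT3L (-1.89). Of all 18278 loci, 1148 were called at that setting. The cause of these shifts was not tested, beyond the smaller number of loci in the Ensembl set. Libraries with the same replicate number did not deviate together (18 pairs, correlation -0.0900 to 0.0867), so the numbers do not pair them. A replicate block gave 615, 445, 532 and 7843 calls and changed no call of the 4 genes. Depth is unknown, and values near 0, such as MKRN3 in ESC7, have no counting limit.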
